A study of Mus musculus with 27 samples.

Results

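Chemokines are small secreted proteins that set up gradients and draw in cells carrying the matching receptors, which are G protein-coupled. They are classed by their first cysteines, which are adjacent in the CC class and separated by 1 residue in the CXC class. Fibroblasts and macrophages both make them: Ccl2, Ccl7, Cxcl1 and Cxcl12 are well-known products of stromal cells such as fibroblasts, Ccl3, Ccl4, Ccl6 and Ccl9 of myeloid cells such as macrophages, and Cxcl10 of many cells after interferon. The 10 genes described here, Ccl2, Ccl7, Ccl3, Ccl4, Ccl5, Ccl6, Ccl9, Cxcl1, Cxcl10 and Cxcl12, were taken by gene symbol from the 54532 genes of the expression table, and every one was found.

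The libraries came from mouse embryonic fibroblasts (MEFs) of wild-type (WT), Per1-/- (B6.129-Per1tm1Drw/J) and Per2-/- (B6.129-Per2tm1Drw/J) mice, and the study asked how circadian regulators bear on the reprogramming of fibroblasts into neurons. All cells, including those of day 0, were transduced with neuronal transcription factors expressed from doxycycline-inducible lentiviruses. Cells were harvested on days 0, 2 and 4, with 3 biological replicates in each of the 9 groups and 27 libraries in all. Embryos were taken at mid-gestation, head and heart were removed, and the cells of several embryos were pooled in each dish. The virus was added before day 0, and day 0 was the day when serum medium was exchanged for serum-free medium with doxycycline, so days 0 and 2 also differ in serum and in expression of the factors, and time cannot be told apart from these. The labels call all samples induced neurons, although the MEF cultures also hold macrophages.

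Each library held between 15815013 and 24264097 fragments on genes (median 19224804), and gene levels are given as FPKM, fragments per kilobase of gene length scaled to the depth of the library. The gene targeted in the Per1-/- cells was measured at 3.23 to 4.96 FPKM (median 4.49, n = 9) there and at 4.76 to 6.33 FPKM (median 4.95, n = 9) in WT. Per2 was at 1.87 to 3.30 FPKM (median 2.64, n = 9) in the libraries labelled Per2-/- and at 0.817 to 1.97 FPKM (median 1.55, n = 9) in WT, which goes against a simple loss of the transcript, so they are called the libraries labelled Per2-/- here. Per1 itself did not pass in limma between Per1-/- and WT on any day (adjusted p of 0.771 to 0.999). A level over the whole gene need not fall where an allele removes part of it. By western blot, the study found PER1 protein lost in its Per1-/- MEFs and PER2 protein lost in its Per2-/- MEFs. Fibroblast markers (14 of 14 listed genes tested) were abundant on day 0, whereas the 8 granulocyte and 10 lymphocyte markers listed were all below the filter of a mean of 0.5 FPKM. One library stood apart. Per1-/- replicate 3 of day 0 had a summed level of 20 macrophage markers of 1246 FPKM, against 229 and 394 FPKM in the other Per1-/- libraries of that day, and results that rest on it are given with and without it.

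The cysteine motif that defines the classes is shown for 9 members because it is the feature that defines each class. Below, 10 codons of each of these coding sequences are written 5′ to 3′ on the coding strand (GRCm38, GENCODE M21 models, each window within 1 exon). Capitals mark the first pair of cysteine codons that are adjacent or separated by 1 codon. In the 6 CC genes shown the cysteine codons are next to each other.
Ccl2: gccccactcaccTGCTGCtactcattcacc
Ccl7: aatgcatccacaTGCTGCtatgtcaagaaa
Ccl4: cctcccacttccTGCTGTttctcttacacc
Ccl5: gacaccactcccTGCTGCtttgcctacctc
Ccl6: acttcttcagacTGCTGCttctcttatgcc
Ccl9: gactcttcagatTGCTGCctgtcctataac
In the 3 CXC genes 1 codon lies between them.
Cxcl1: aatgagctgcgcTGTcagTGCctgcagacc
Cxcl10: aggacggtccgcTGCaacTGCatccatatc
Cxcl12: ctgagctaccgaTGCcccTGCcggttcttc
The windows of these CC genes are at Ccl2 chr11:82036494-82036523 (+), Ccl7 chr11:82046526-82046555 (+), Ccl4 chr11:83663470-83663499 (+), Ccl5 chr11:83529230-83529259 (−), Ccl6 chr11:83589374-83589403 (−) and Ccl9 chr11:83575914-83575943 (−). Those of the CXC genes are at Cxcl1 chr5:90891484-90891513 (+), Cxcl10 chr5:92348172-92348201 (−) and Cxcl12 chr6:117171496-117171525 (+).

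All 7 CC genes lie on chromosome 11 in a pair of groups. Ccl2 (chr11:82035571-82037453, plus strand) and Ccl7 (chr11:82045712-82047525, plus strand) are neighbours 8.258 kb apart, and both encode ligands of Ccr2, the receptor that recruits monocytes. The second group holds Ccl5 (chr11:83525778-83530518, minus strand), Ccl9 (chr11:83572919-83578636, minus strand), Ccl6 (chr11:83587882-83593087, minus strand), Ccl3 (chr11:83647844-83649355, minus strand) and Ccl4 (chr11:83662584-83664683, plus strand). Ccl3, Ccl4 and Ccl5 encode attractants of monocytes and T cells, and Ccl6 and Ccl9 encode ligands of Ccr1. Cxcl1 (chr5:90891241-90893115, plus strand) encodes a ligand of Cxcr2 that attracts neutrophils, Cxcl10 (chr5:92346638-92348889, minus strand) a ligand of Cxcr3, and Cxcl12 (chr6:117168535-117181367, plus strand) the ligand of Cxcr4 and Ackr3. The coding sequences most alike were those of neighbours, with 69.6% of 342 aligned bases identical between Ccl6 and Ccl9, 69.3% of 270 between Ccl3 and Ccl4, and 69.1% of 291 between Ccl2 and Ccl7. No stretch of 50 bases of the transcripts was shared with another gene for 9 of the members, and 59 of 2957 stretches were for Ccl9, so most fragments of each member can be placed on it alone.

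The members differed widely in level on day 0, and the order of the levels changed with time. On day 0, Ccl7 (69.1 ± 14.0 FPKM, SD, n = 9 libraries of all genotypes), Ccl2 (51.5 ± 13.4) and Cxcl12 (45.9 ± 12.7) were the highest, with ranges that overlapped one another. They were followed at a distance by Ccl9 (4.22 ± 2.93 FPKM), Ccl3 (3.68 ± 3.58), Ccl4 (2.51 ± 3.01), Ccl6 (2.40 ± 1.90) and Cxcl1 (1.91 ± 1.09), whose ranges also overlapped. Ccl5 (0.372 ± 0.295 FPKM) and Cxcl10 (0.371 ± 0.158) were the lowest and did not differ beyond their spread. By day 4 the order was Cxcl12 (20.9 ± 5.63 FPKM), Ccl7 (14.8 ± 6.90), Ccl9 (9.95 ± 4.11), Ccl2 (6.84 ± 4.72), Ccl3 (5.12 ± 3.12), Ccl4 (1.79 ± 0.935), Cxcl1 (1.42 ± 0.644), Cxcl10 (0.909 ± 0.542), Ccl6 (0.643 ± 0.338) and Ccl5 (0.475 ± 0.353), and each gene's range overlapped with that of its neighbour in the order. As a share of the summed FPKM of the 10 genes, Ccl2 went from a mean of 28.4% on day 0 to 10.3% on day 4, Ccl7 from 38.3% to 23.1%, Cxcl12 from 25.3% to 34.3% and Ccl9 from 2.21% to 15.9%. The monocyte attractants Ccl2 and Ccl7 made up most of the summed level at the start and the minority of it at the end.

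**Figure D1:**
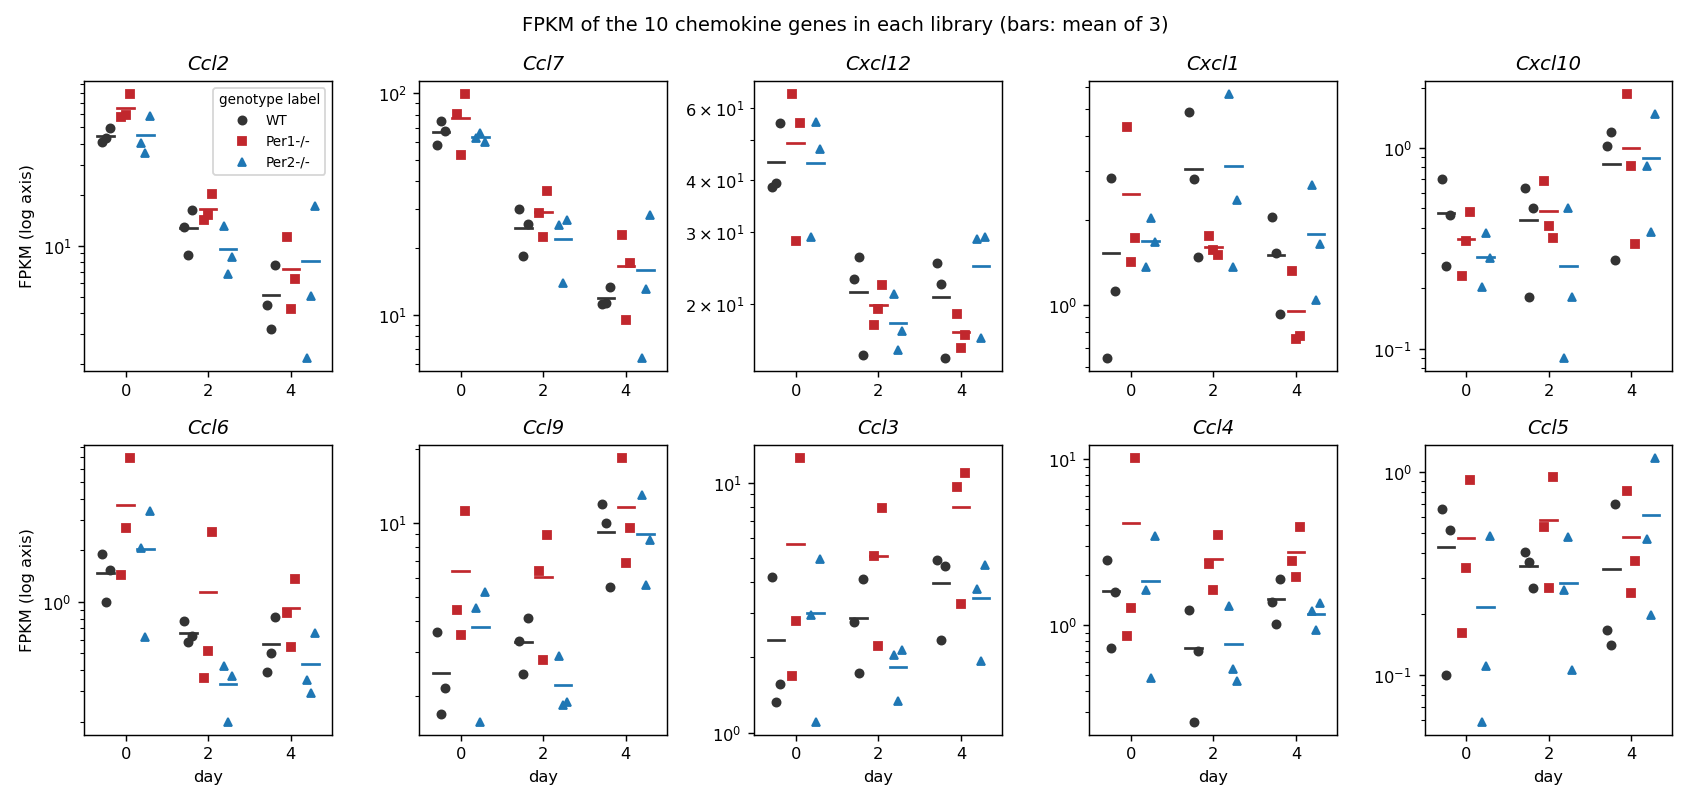
FPKM (log axis) of the 10 chemokine genes in each of the 27 libraries by day, with 1 panel per gene, a point per library, genotypes by colour and shape, and bars for the mean of 3. Ccl2, Ccl7 and Cxcl12 lie highest on day 0 and lower on days 2 and 4, while Ccl9 lies higher on day 4.

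The largest effects were those of time. From day 0 to day 4 in WT cells, 3 of the 9 members that passed the filter fell (Ccl2, Ccl7 and Cxcl12) and 1 rose (Ccl9), where 20.9% of the 14932 genes tested fell and 22.9% rose. Genes were called as changed by limma at an adjusted p of 0.05 or less together with a log2 change of 0.58 or more in size. In Per1-/- cells 4 fell (the same genes and Ccl6, against 20.4% of all genes) and 0 rose (22.6% of all genes). In the libraries labelled Per2-/-, 4 fell (Ccl2, Ccl7, Cxcl12 and Ccl6, against 18.8%) and 1 rose (Ccl9, against 21.6%). The change from day 0 to day 2 already held most of the decreases: 3 members fell in WT (19.7% of all genes) and none rose (20.8%), 4 fell in Per1-/- (18.8%, with 20.8% rising), and 4 fell in the libraries labelled Per2-/- (16.8%, with 18.7% rising). Between days 2 and 4, 0 members were called in WT (3.21% of all genes in either direction) and 0 in Per1-/- (2.44%). There 3 and 2 of the 9 members had an unadjusted limma p under 0.05, as did 2977 and 2983 of the 14932 genes. In the libraries labelled Per2-/-, 1 member, Ccl9, was called (4.06%). The median log2 change of the members from day 0 to day 4 was -0.04 in WT, -1.18 in Per1-/- and -0.28 in the libraries labelled Per2-/-, beside medians over all genes of -0.02, -0.00088 and 0.0045. When FPKM were rescaled to a common sum per library, the medians over all genes of the changes from day 0 were 0.25 to 0.41, and the split of all genes moved, in WT to day 2 from 3101 higher and 2944 lower to 5564 higher and 1253 lower. Ccl2 and Ccl7 fell in every genotype under that scaling too.

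**Figure D2:**
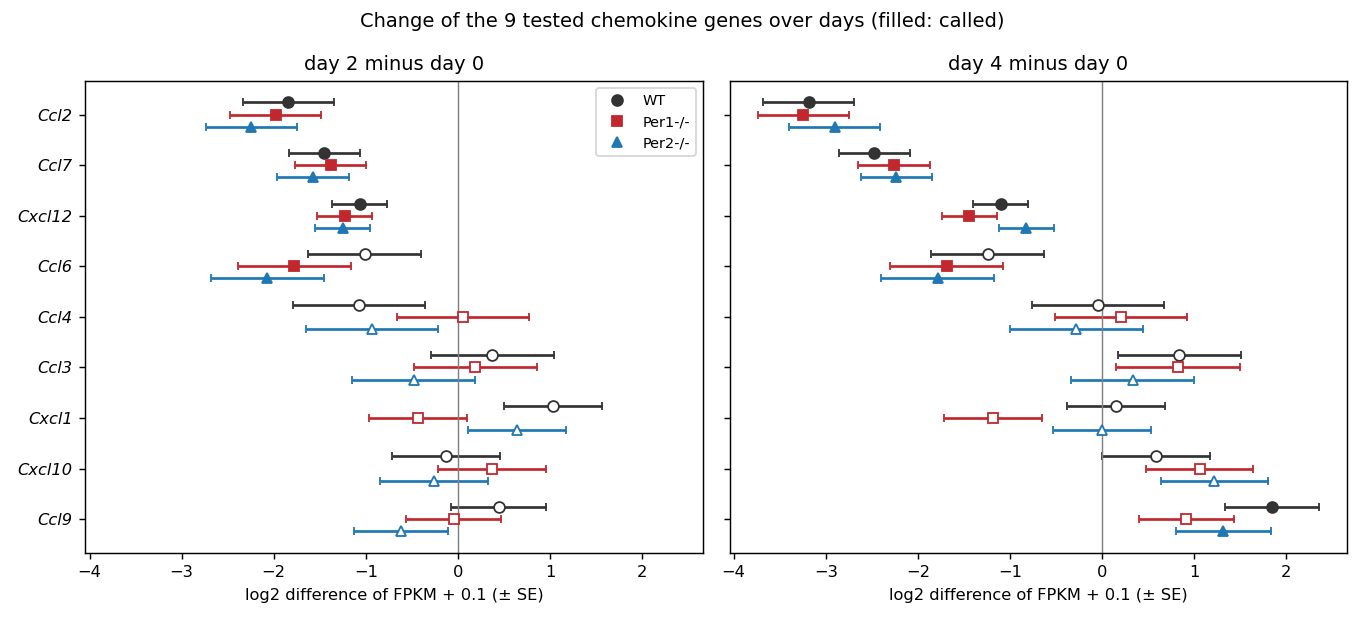
Change on the log2(FPKM + 0.1) scale of each tested chemokine gene against day 0, on day 2 (left) and day 4 (right) by genotype, with bars for the standard error from limma and filled symbols for called changes. Ccl2 and Ccl7 lie lowest on day 4 in all 3 genotypes, and Ccl9 lies above 0.

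Ccl2 and Ccl7, which share the receptor Ccr2, fell together and furthest. On day 0 Ccl2 was at 40.8, 43.1 and 49.9 FPKM in WT, at 57.6, 58.8 and 78.6 FPKM in Per1-/- and at 40.5, 35.3 and 58.6 FPKM in the libraries labelled Per2-/-. On day 2 it was at 12.96, 8.85 and 16.3 FPKM in WT, at 14.1, 15.1 and 20.2 FPKM in Per1-/- and at 13.1, 6.81 and 8.61 FPKM in the libraries labelled Per2-/-. On day 4 it was at 4.47, 3.20 and 7.72 FPKM in WT, at 11.2, 4.20 and 6.33 FPKM in Per1-/- and at 2.17, 5.07 and 17.2 FPKM in the libraries labelled Per2-/-. In every genotype all libraries of days 2 and 4 lay below all those of day 0. Depending on genotype and later day, 31.1% to 35.5% of all genes did so. The decrease to day 4 was 9.09-fold in WT (log2 change of -3.18 ± 0.49, SE, adjusted p = 1.09e-05), 9.49-fold in Per1-/- (-3.25 ± 0.49, adjusted p = 9.01e-06) and 7.47-fold in the libraries labelled Per2-/- (-2.90 ± 0.49, adjusted p = 3.73e-05). These folds, and all below, are on the log2(FPKM + 0.1) scale.

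Ccl7 was at 58.2, 75.0 and 67.2 FPKM in WT, at 80.3, 52.6 and 98.9 FPKM in Per1-/- and at 63.0, 66.1 and 60.3 FPKM in the libraries labelled Per2-/- on day 0. On day 4 it was at 11.2, 11.3 and 13.3 FPKM in WT, at 22.9, 9.48 and 17.2 FPKM in Per1-/- and at 6.39, 13.1 and 28.2 FPKM in the libraries labelled Per2-/-. The groups of days 0 and 4 did not overlap, as was so in this direction of 32.1% to 35.5% of all genes by genotype. The spread on day 4 was widest in the libraries labelled Per2-/-. Ccl7 fell 5.55-fold in WT (-2.47 ± 0.39, adjusted p = 1.27e-05), 4.79-fold in Per1-/- (-2.26 ± 0.39, adjusted p = 3.78e-05) and 4.70-fold in the libraries labelled Per2-/- (-2.23 ± 0.39, adjusted p = 4.75e-05). Most of it had taken place by day 2, when Ccl7 was lower by 2.73-fold in WT, 2.61-fold in Per1-/- and 2.97-fold in the libraries labelled Per2-/-. The ratio of Ccl7 to Ccl2 was between 0.893 and 1.87 on day 0 and between 1.64 and 3.53 on day 4 (n = 9 libraries each), with a small overlap. Across the 27 libraries the log2 levels of the pair had r = 0.97, and r = 0.85 after the group means were taken off, the highest of any pair with Ccl2. These correlations are a description over libraries that share their scaling.

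Cxcl12, which keeps Cxcr4-bearing progenitors and neurons in place, fell early and less. It was at 38.4, 39.4 and 55.2 FPKM in WT, at 64.6, 28.4 and 55.0 FPKM in Per1-/- and at 29.1, 55.2 and 47.7 FPKM in the libraries labelled Per2-/- on day 0. On day 2 it was at 23.1, 26.1 and 15.0 FPKM in WT, at 17.8, 19.5 and 22.3 FPKM in Per1-/- and at 21.2, 15.5 and 17.2 FPKM in the libraries labelled Per2-/-. On day 4 it was at 25.2, 22.4 and 14.8 FPKM in WT, at 18.9, 15.6 and 16.9 FPKM in Per1-/- and at 28.8, 16.5 and 29.0 FPKM in the libraries labelled Per2-/-. The days 0 and 2 did not overlap in any genotype, as was so in this direction of 31.1% to 34.6% of all genes. Days 2 and 4 overlapped in every genotype. The change to day 2 was -1.07 ± 0.30 in WT (adjusted p = 0.00404), -1.23 ± 0.30 in Per1-/- (adjusted p = 0.00129) and -1.25 ± 0.30 in the libraries labelled Per2-/- (adjusted p = 0.00121). When FPKM were rescaled to a common sum per library, the call in WT on day 2 was lost (-0.63, adjusted p = 0.0678), as was that of day 4 in the libraries labelled Per2-/- (-0.57, adjusted p = 0.102). As deposited, that last change was -0.82 ± 0.30 (adjusted p = 0.0214), and it was also lost without replicate 2 or 3 of day 0 or replicate 2 of day 4.

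Ccl6 and Ccl9 are neighbours 9.245 kb apart on the same strand and encode ligands of the same receptor, and their levels changed unequally. From day 0 to day 4, both were called in the main fit only in the libraries labelled Per2-/-, where Ccl6 fell and Ccl9 rose. That restriction depends on the model, since with a block for replicate number both were also called in WT and in Per1-/-. In the libraries labelled Per2-/-, the call of Ccl9 was lost with only the libraries compared, with all genes above 0 and with a macrophage marker covariate. The 250 bases upstream of each start are shown to set these neighbours side by side (RefSeq, GRCm38.p6, minus strand, chr11:83593088-83593337 for Ccl6 and chr11:83578637-83578886 for Ccl9). Capitals mark motifs found by a search of both strands.
Ccl6: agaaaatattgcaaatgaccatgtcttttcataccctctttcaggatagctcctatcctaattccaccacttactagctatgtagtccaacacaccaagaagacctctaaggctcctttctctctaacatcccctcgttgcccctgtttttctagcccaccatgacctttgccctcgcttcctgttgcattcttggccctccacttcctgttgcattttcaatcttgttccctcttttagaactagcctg
Ccl9: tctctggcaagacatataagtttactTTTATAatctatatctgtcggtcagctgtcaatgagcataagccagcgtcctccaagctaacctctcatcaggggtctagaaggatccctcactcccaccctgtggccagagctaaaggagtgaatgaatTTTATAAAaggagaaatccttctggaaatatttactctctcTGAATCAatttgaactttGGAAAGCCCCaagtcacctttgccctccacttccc
In Ccl9 the capitals are, from left to right, TATAAA on the opposite strand, TATAAA on both strands, an AP-1 site (TGANTCA) and a kappaB motif. In Ccl6 none of the 5 motifs searched was found, which were the kappaB motif, the interferon element GAAANNGAA, the AP-1 site TGANTCA, the E-box CACGTG and the TATA box TATAAA. Of all 32851 promoters of this collection, 13.6% hold TATAAA, 7.81% TGANTCA and 8.46% the kappaB motif in 300 bases around the start. These are matches of letters in a short window only.

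On day 0 Ccl6 was at 1.90, 0.996 and 1.53 FPKM in WT, at 1.44, 2.71 and 6.94 FPKM in Per1-/- and at 2.06, 0.621 and 3.40 FPKM in the libraries labelled Per2-/-. On day 2 it was at 0.774, 0.58 and 0.631 FPKM in WT, at 0.358, 0.515 and 2.58 FPKM in Per1-/- and at 0.422, 0.200 and 0.37 FPKM in the libraries labelled Per2-/-. On day 4 it was at 0.388, 0.501 and 0.819 FPKM in WT, at 0.866, 0.546 and 1.37 FPKM in Per1-/- and at 0.350, 0.292 and 0.655 FPKM in the libraries labelled Per2-/-. In WT and Per1-/- every library of day 4 lay below every library of day 0, as was so of 35.5% and 32.1% of all genes. The change to day 4 was -1.68 ± 0.61 in Per1-/- (adjusted p = 0.0214) and -1.78 ± 0.61 in the libraries labelled Per2-/- (adjusted p = 0.0163), and in WT it was -1.24 ± 0.61 and missed the threshold (adjusted p = 0.0821). The calls for Ccl6 rest on few fragments, 7 to 184 per library. In Per1-/- the change to day 4 was -1.10 (adjusted p = 0.147) without the library with high macrophage markers, and the call was also lost without replicate 2 of day 4. The calls in the libraries labelled Per2-/- were lost without replicate 3 of day 0 for both days and, for day 4, also without replicate 1 of day 0 or replicate 2 of day 4. The call of day 2 in Per1-/- was lost without replicate 3 of day 0 or replicate 1 or 2 of day 2.

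On day 0 Ccl9 was at 3.61, 1.68 and 2.14 FPKM in WT, at 4.45, 3.52 and 11.2 FPKM in Per1-/- and at 4.55, 1.57 and 5.26 FPKM in the libraries labelled Per2-/-. On day 2 it was at 3.33, 2.45 and 4.14 FPKM in WT, at 6.40, 2.78 and 8.95 FPKM in Per1-/- and at 2.90, 1.84 and 1.88 FPKM in the libraries labelled Per2-/-. On day 4 it was at 11.99, 10.02 and 5.53 FPKM in WT, at 18.4, 6.88 and 9.57 FPKM in Per1-/- and at 13.01, 5.59 and 8.54 FPKM in the libraries labelled Per2-/-. Days 0 and 4 did not overlap in WT and in the libraries labelled Per2-/- and overlapped in Per1-/-. Of all genes, 33.1% in WT and 31.0% in the libraries labelled Per2-/- lay wholly above day 0 on day 4. Ccl9 rose 3.59-fold to day 4 in WT (1.85 ± 0.51, adjusted p = 0.00372) and 2.49-fold in the libraries labelled Per2-/- (1.32 ± 0.51, adjusted p = 0.0320), and the change in Per1-/- was 0.92 ± 0.51 (adjusted p = 0.127). Without the Per1-/- library of day 0 with high macrophage markers, the change in Per1-/- was 1.41 (adjusted p = 0.0288). The difference between Per1-/- and WT in the change to day 4 was -0.93 ± 0.73 (adjusted p = 1.00), so the calls in WT and not in Per1-/- are not shown to differ. In the libraries labelled Per2-/-, the rise from day 2 to day 4 was 3.83-fold (1.94 ± 0.51, adjusted p = 0.0284). The call of day 4 against day 0 was lost there without replicate 2 of day 0 or replicate 1 or 3 of day 4, and that of day 4 against day 2 without replicate 2 or 3 of day 2 or replicate 1 or 3 of day 4.

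The ratio of Ccl9 to Ccl6 within a library followed from these changes. It was between 1.30 and 3.09 on day 0 (median 1.69, n = 9), between 3.47 and 17.8 on day 2 (median 5.40) and between 6.75 and 37.2 on day 4 (median 19.1), and day 0 did not overlap with either later day.  A ratio within a library does not depend on scaling, and it shows that the changes of this pair were unequal, not which of them moved.

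**Figure D3:**
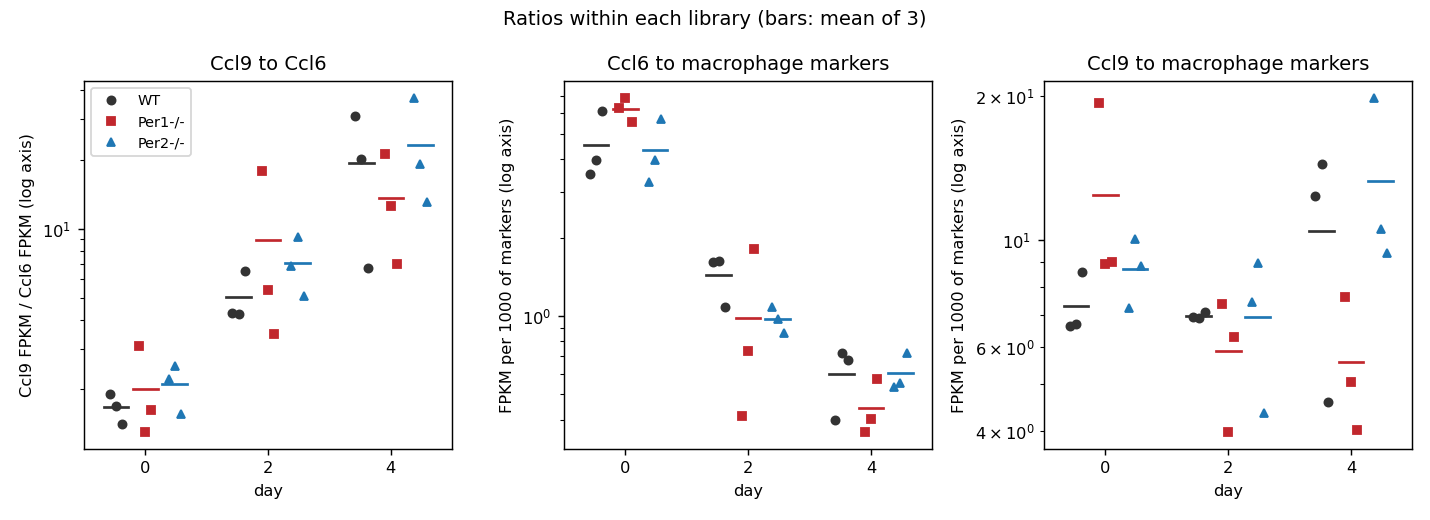
Ratio of Ccl9 to Ccl6 FPKM (left), and Ccl6 (middle) and Ccl9 (right) FPKM per 1000 FPKM of summed macrophage markers, in each library by day (log axes), with genotypes by colour and shape and bars for the mean of 3. The ratio of Ccl9 to Ccl6 lies between 1.30 and 3.09 on day 0 and between 6.75 and 37.2 on day 4.

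Ccl3 and Ccl4, attractants made by activated macrophages, were not called over days in the fit of all libraries. Ccl3 was at 4.18, 1.33 and 1.56 FPKM in WT, at 1.69, 2.80 and 12.6 FPKM in Per1-/- and at 2.97, 1.11 and 4.93 FPKM in the libraries labelled Per2-/- on day 0. On day 4 it was at 4.89, 2.35 and 4.65 FPKM in WT, at 9.64, 3.28 and 10.9 FPKM in Per1-/- and at 3.75, 1.93 and 4.66 FPKM in the libraries labelled Per2-/-. Within each genotype the days overlapped. The change to day 4 was 0.84 ± 0.67 in WT, 0.82 ± 0.67 in Per1-/- and 0.33 ± 0.67 in the libraries labelled Per2-/-, with adjusted p-values of 0.283, 0.292 and 0.685. Without the Per1-/- library of day 0 with high macrophage markers, the change of Ccl3 in Per1-/- was 1.65 and was called (adjusted p = 0.0333). Ccl4 was at 0.861, 1.28 and 10.2 FPKM in Per1-/- on day 0, and the highest of these is that same library. The change of Ccl4 to day 4 was between -0.28 and 0.21 in the 3 genotypes, and without that library it was 1.26 in Per1-/- and was not called (adjusted p = 0.0926).

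Ccl5, an attractant of T cells, had 1 to 24 fragments per library and a mean of 0.417 FPKM over the 27 libraries, below the filter, and was not tested. Its values were between 0.0592 and 1.17 FPKM, with the days overlapping. Cxcl1, the neutrophil attractant, was between 0.645 and 5.66 FPKM. Its change to day 4 was -1.18 ± 0.53 in Per1-/- and was not called (limma adjusted p = 0.0588). The days did not overlap there, as was so in this direction of 32.1% of all genes. Cxcl1 was at 4.33, 1.42 and 1.73 FPKM on day 0 and at 1.32, 0.751 and 0.773 FPKM on day 4. After rescaling to a common sum, Cxcl1 was called as higher on day 2 in WT (1.44, adjusted p = 0.0240).

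Cxcl10, a ligand of Cxcr3 that interferon induces, is printed with its 250 upstream bases because, of the 6 members with a promoter in the collection, it is the one with both an interferon and a kappaB motif (RefSeq, GRCm38.p6, chr5:92348890-92349139, minus strand).
Cxcl10: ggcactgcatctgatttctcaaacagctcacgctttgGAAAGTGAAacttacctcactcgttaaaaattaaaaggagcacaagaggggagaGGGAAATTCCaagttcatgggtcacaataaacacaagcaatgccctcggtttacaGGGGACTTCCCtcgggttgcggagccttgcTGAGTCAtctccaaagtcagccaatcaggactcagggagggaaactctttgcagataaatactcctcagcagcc
The capitals mark, from left to right, GAAANNGAA (part of the interferon-stimulated response element, in 8.56% of all promoters), a kappaB motif, overlapping kappaB motifs and an AP-1 site. The kappaB motif was also found in Cxcl1 and Ccl9, GAAANNGAA in Ccl3, and CACGTG, the E-box bound by clock factors and present in 7.15% of promoters, in none of the 6. Cxcl10 was at 0.229, 0.346 and 0.481 FPKM on day 0 and at 1.86, 0.816 and 0.331 FPKM on day 4 in Per1-/-. It was at 0.202, 0.377 and 0.284 FPKM on day 0 and at 0.817, 0.381 and 1.48 FPKM on day 4 in the libraries labelled Per2-/-. The days did not overlap there, as was so in this direction of 31.0% of all genes. The change to day 4 was 0.59 ± 0.58 in WT, 1.06 ± 0.58 in Per1-/- and 1.22 ± 0.58 in the libraries labelled Per2-/-, and none passed the threshold (adjusted p-values of 0.392, 0.121 and 0.0769). After rescaling to a common sum, the last was called (1.42, adjusted p = 0.0443). Of 17 tested interferon-response genes, 14 rose to day 4 in WT, 15 in Per1-/- and 14 in the libraries labelled Per2-/-, and 0 fell. Over all genes, 22.9%, 22.6% and 21.6% rose, in the same order.

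Genes that mark macrophages rose over the same days. Of 19 tested macrophage markers, 15 rose from day 0 to day 4 in WT, 18 in Per1-/- and 9 in the libraries labelled Per2-/-, and 0 fell. Over all genes, 22.9%, 22.6% and 21.6% rose, in the same order. The summed level of the macrophage markers was 250 to 543 FPKM on day 0 and 694 to 1206 FPKM on day 4 in WT. It went from 229 to 1246 FPKM on day 0 to 1362 to 2419 FPKM on day 4 in Per1-/-, and from 156 to 629 FPKM to 529 to 907 FPKM in the libraries labelled Per2-/-. No marker of the list was at 0 in all libraries, and 1, Cd163, was below the filter. In bulk samples, fewer cells of a type and less RNA per cell cannot be told apart. After the group means were taken off, the log2 levels of Ccl3, Ccl4, Ccl6 and Ccl9 had r of 0.93, 0.84, 0.84 and 0.73 with the macrophage sum over the 27 libraries. For the others r was 0.52 for Ccl5, 0.46 for Ccl2, 0.40 for Ccl7, 0.04 for Cxcl10, -0.15 for Cxcl12 and -0.24 for Cxcl1. Without the 2 libraries whose macrophage sum deviated most, r was 0.91 for Ccl3, 0.75 for Ccl4, 0.78 for Ccl6, 0.61 for Ccl9 and 0.47 for Ccl2. By rank over all 27 libraries, Spearman's rho was 0.68 for Ccl9 and 0.63 for Ccl2, so Ccl2 and Ccl9 were not clearly apart.

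Per 1000 FPKM of the macrophage sum, Ccl6 was at 3.27 to 6.89 on day 0, 0.412 to 1.81 on day 2 and 0.358 to 0.722 on day 4, without overlap between day 0 and the later days. Ccl4 went from 2.60 to 8.16 on day 0 to 1.00 to 1.87 on day 4, also without overlap. Ccl9 was at 6.64 to 19.4 on day 0 and 4.02 to 19.9 on day 4, with the ranges overlapping almost in full. With the mean log2 level of the macrophage markers as a covariate, the changes of Ccl6 to day 4 were -3.20 in WT, -4.00 in Per1-/- and -3.0 in the libraries labelled Per2-/-, all called, and those of Ccl9 were 0.28, -0.94 and 0.34, none called. Ccl4 and Ccl3, not called without the covariate, were then called as lower in all 3 genotypes, Ccl4 by -2.53, -2.75 and -1.83 and Ccl3 by -1.57, -2.03 and -1.16 on the log2 scale in the same order. The calls of Cxcl12 to day 4 were lost with the covariate in WT and in the libraries labelled Per2-/-, and kept in Per1-/-. The part of macrophage content in the changes of the members was not tested.

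**Figure D4:**
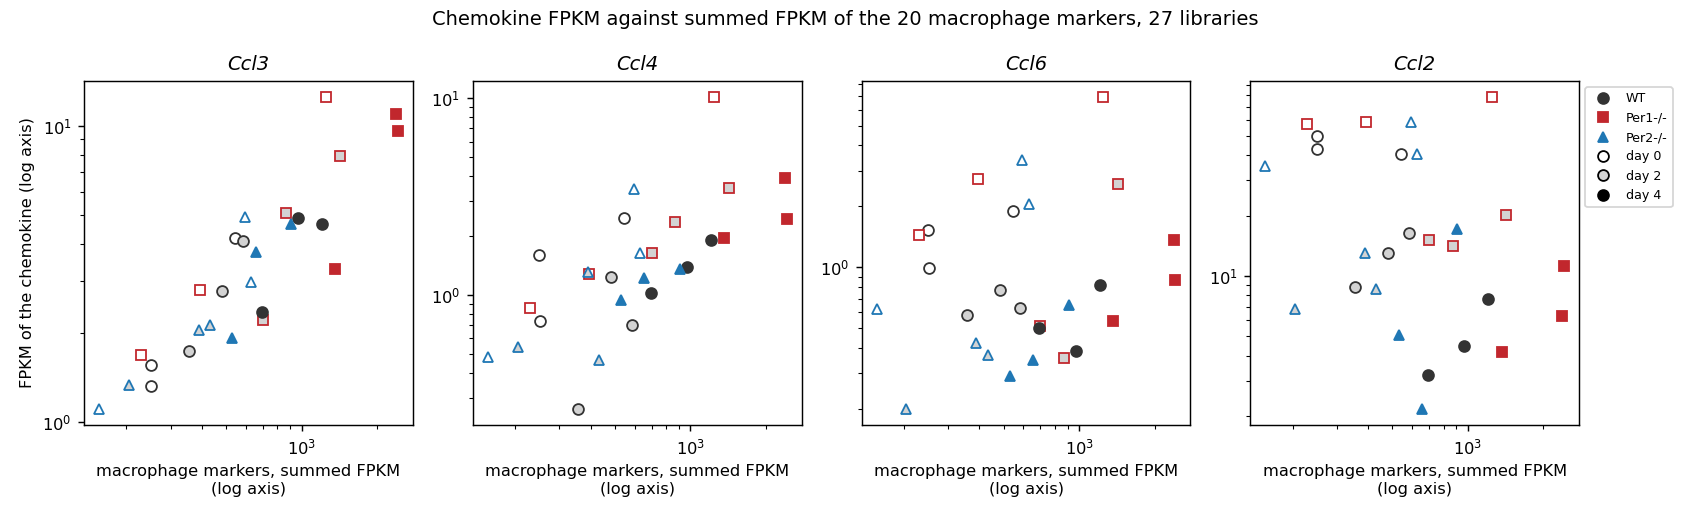
FPKM of Ccl3, Ccl4, Ccl6 and Ccl2 (y) against the summed FPKM of 20 macrophage markers (x) in the 27 libraries (log axes), with genotypes by colour and shape and days by fill (open, grey and full). The day 4 libraries lie between 529 and 2419 FPKM on the x axis, and for Ccl6 and Ccl2 they lie below the day 0 libraries of the same marker level.

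Genotype was compared within each day, and none of the 9 tested members was called in any of the 9 comparisons. The study, which ran DESeq2 at the same cut-offs, reported more genes that differed between Per1-/- and the other genotypes. Members not called here are therefore not shown to have equal levels. Between Per1-/- and WT 0 of 9 were called on each of days 0, 2 and 4, where 0.0134%, 0.0067% and 0.0268% of all genes were. Between Per1-/- and the libraries labelled Per2-/- it was likewise 0 of 9, where 0.0201%, 0.0737% and 0.556% of all genes were called on the successive days. Between the latter and WT it was 0 of 9, where 0.0067%, 0.0268% and 0.0067% were called. At an unadjusted p under 0.05, limma gave 1 member between Per1-/- and WT on day 0 (Ccl9), 1 on day 2 (Ccl4) and 0 on day 4. It gave 2 between Per1-/- and the libraries labelled Per2-/- on day 2 (Ccl4 and Ccl9) and 0 in the other comparisons.

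Ccl4 was the member in which Per1-/- and WT lay furthest apart. On day 2 it was at 1.23, 0.263 and 0.702 FPKM in WT, at 2.34, 1.64 and 3.51 FPKM in Per1-/- and at 1.30, 0.544 and 0.464 FPKM in the libraries labelled Per2-/-. Every Per1-/- library lay above every library of the other groups. That was so of 5.26% of all genes for Per1-/- over WT on day 2, and of 8.59% over the libraries labelled Per2-/-. The difference between Per1-/- and WT was 3.40-fold (1.77 ± 0.72), with limma p-values of 0.0227 before adjustment and an adjusted p = 0.999, on 3 to 46 fragments per library. On day 4 Ccl4 was at 1.38, 1.02 and 1.89 FPKM in WT and at 2.43, 1.95 and 3.92 FPKM in Per1-/-, again without overlap, as was so of 7.98% of all genes. The macrophage sum did not overlap between Per1-/- and WT on either day, with 356 to 584 FPKM in WT and 701 to 1425 FPKM in Per1-/- on day 2, and its part in the difference of Ccl4 was not tested.

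Ccl2 of day 0 also did not overlap, with 40.8 to 49.9 FPKM in WT and 57.6 to 78.6 FPKM in Per1-/-, as was so of 2.31% of all genes, and with a difference of 1.45-fold in limma (adjusted p = 1.00). Ccl9 of day 0 was higher in Per1-/- by 2.32-fold (1.22 ± 0.51, limma adjusted p = 1.00), and by 0.72 on the log2 scale without the library with high macrophage markers. Without that library, the differences of day 0 between Per1-/- and WT were 0.07 for Ccl3, -0.41 for Ccl4 and 0.44 for Ccl6. The difference of the changes over days between genotypes was tested as well. In all 6 such comparisons 0 of the 9 members were called, 0 had an unadjusted p under 0.05 in limma, and 0% of all genes were called. Over all genes, 306 to 895 had an unadjusted p under 0.05 in limma, depending on the comparison.

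**Figure D5:**
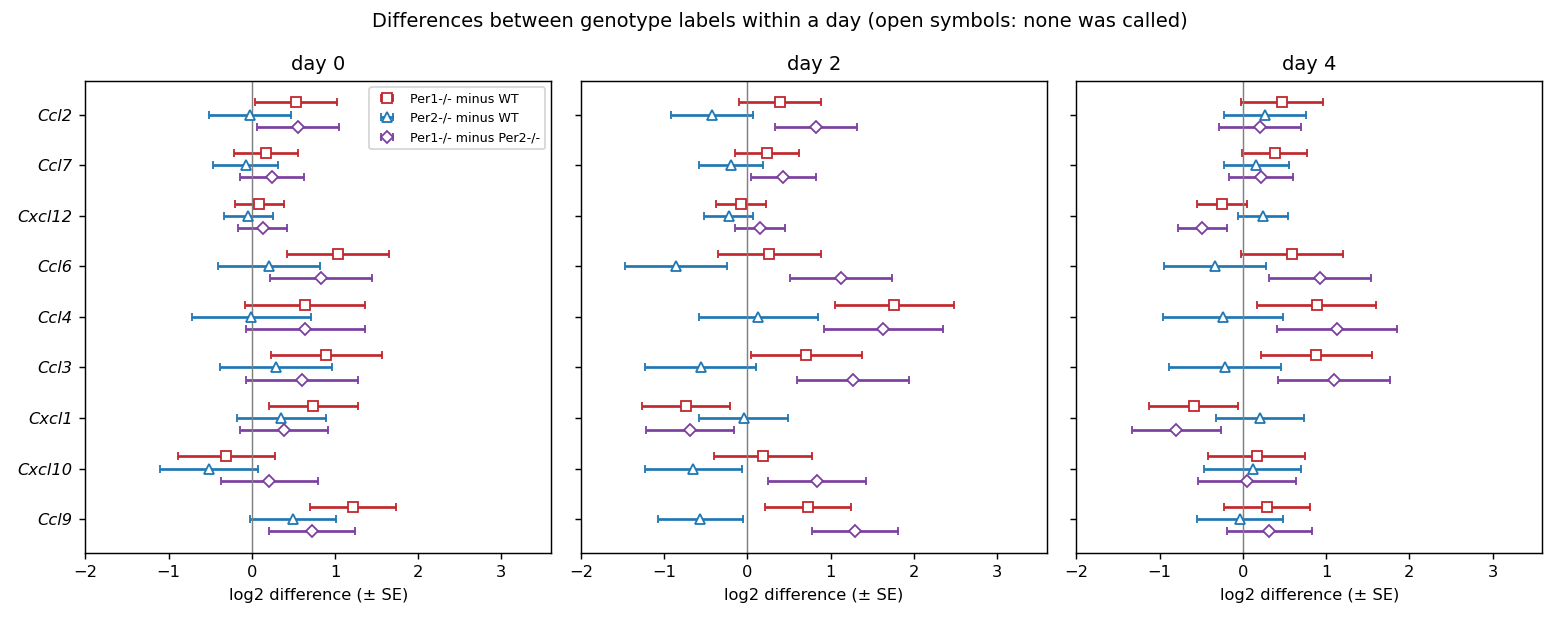
Differences between genotypes on the log2(FPKM + 0.1) scale for each tested chemokine gene on days 0, 2 and 4, with bars for the standard error from limma. Ccl4 on day 2 lies highest, at 1.77 between Per1-/- and WT, and none of the differences passed the threshold after adjustment.

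Of 26 other chemokine genes listed, 13 were tested. From day 0 to day 4, 5 rose and 2 fell in WT, 4 rose and 2 fell in Per1-/-, and 3 rose and 2 fell in the libraries labelled Per2-/-. Over all genes, 22.9%, 22.6% and 21.6% rose and 20.9%, 20.4% and 18.8% fell, in the same order. The median log2 change of these chemokine genes was 0.79, 0.77 and 0.41. Ppbp, a chemokine precursor best known from platelets, fell in all 3 genotypes (WT, from 12.2 to 1.54 FPKM, -3.11 ± 0.63), as did Cxcl14 (WT, from 28.9 to 8.94 FPKM, -1.76 ± 0.40). Cxcl15, a neutrophil attractant first described in lung, rose in all 3 (WT, from 0.298 to 11.5 FPKM, 5.29 ± 0.84). Cxcl13, which attracts B cells, had 0 or 1 fragments in every library of day 0 and 6 to 107 on day 4, and was also called in all 3. Ccl27a, which shares fragments with near-identical copies and is therefore uncertain, was called as higher as well. Pf4 was called in WT (2.19 ± 0.79), and Cxcl16 in WT (0.85 ± 0.33) and Per1-/- (1.32 ± 0.33).

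Of the receptors, 5 of 23 were tested, and Ccr2, Cxcr2 and Cxcr3, receptors of Ccl2 and Ccl7, of Cxcl1 and of Cxcl10, were below the filter. Ccr1, the receptor of Ccl6 and Ccl9, fell to day 4 in Per1-/- (from 1.65 to 0.571 FPKM, -1.31 ± 0.51, adjusted p = 0.0304) and in the libraries labelled Per2-/- (-1.36 ± 0.51, adjusted p = 0.0263), and in WT the change was -1.05 ± 0.51 (adjusted p = 0.0774). Cxcr4, the receptor of Cxcl12, rose while its ligand fell, in WT (from 0.651 to 2.89 FPKM, 2.29 ± 0.55, adjusted p = 0.00118) and in Per1-/- (1.87 ± 0.55, adjusted p = 0.00588), with 1.17 ± 0.55 in the libraries labelled Per2-/- (adjusted p = 0.0746). Ackr3, which takes up Cxcl12, was not called. Cx3cr1, also a macrophage marker of the list above, rose in all 3 genotypes (2.83, 2.80 and 1.65), and so did Ackr1, a scavenger of chemokines (2.41, 2.35 and 3.07). None of the other chemokines or receptors was called between genotypes.

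Tnf, an inducer of many chemokines, had 0.548 FPKM on day 0 and 1.30 FPKM on day 4 in WT as means and was never called (1.15 ± 0.61 in WT to day 4, adjusted p = 0.106). Of 17 tested genes of the NF-kB list, 2 rose and 6 fell to day 4 in WT, 2 rose and 6 fell in Per1-/-, and 2 rose and 7 fell in the libraries labelled Per2-/-. Over all genes, 22.9%, 22.6% and 21.6% rose and 20.9%, 20.4% and 18.8% fell, in the same order. Their median log2 change was -0.39, -0.24 and -0.28.

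The genes whose log2 levels were most like each member over the 27 libraries were of different kinds, given here with Pearson's r as a description. For Ccl3 they were C5ar1 (0.94), Lilr4b (0.93) and Lyz2 (0.93), for Ccl4 Fcgr2b, Cd14 and C5ar1 (0.83 to 0.84), and for Ccl9 Cfp (0.93), Apobec1 (0.92) and Anpep (0.92). For Ccl6 they were Gpnmb, Ch25h and Rnf128 (0.86 to 0.87). For Ccl7 they were Ccl2 (0.97), Bag3 (0.95) and Rras (0.93), for Cxcl12 Shc1, Myo1d and Hcfc1r1 (all 0.93), for Cxcl10 Ifit3 first (0.77) and for Cxcl1 Cxcl5 first (0.71). The lists of Ccl3 and Ccl4 share C5ar1, and no gene is shared between those of Ccl6 and Ccl9.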

How the data were processed

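Poly-A RNA from 27 cultures was sequenced as nondirectional paired ends. The authors aligned the reads with HISAT2 2.0.5 to GRCm38 with the Ensembl annotation and counted them with featureCounts 1.5.0-p3, per the submitters' processing notes and the study's methods, and deposited FPKM per gene, which were the values used. Without strand, overlapping genes on opposite strands cannot be told apart. The FPKM were whole fragments after scaling (tolerance 0.01), so depth could be recovered, 15815013 to 24264097 fragments per library, and replicates differed by more than counting noise (chi-square per gene of 9.01 to 67.4).

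Groups came from the labels. The 9 groups were fitted in 1 model with limma 3.58.1 (R 4.3.3, trend) on log2(FPKM + 0.1) over the 14932 genes that averaged 0.5 FPKM or more, with Benjamini-Hochberg adjustment of the two-sided p-values over that whole set. The study used DESeq2 with the same cut-offs (adjusted p of 0.05 and log2 change of 0.58), which was not run since the deposited unit is FPKM. An exact permutation test of 3 against 3 cannot go below 0.1 and was not used. The p-values measure the spread between libraries labelled as biological replicates. The labels do not say whether these came from separate pools of embryos. The script was tested on simulated data.

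Named are the 10 members, Per1, Per2, Tnf, called genes of the other chemokines and receptors, and the 3 genes most like each member. The members and lists were chosen with earlier results of these data known. Same-numbered libraries of 1 genotype had correlations of -0.017 to 0.294 between days (median 0.127), against a median of -0.062 for other numbers. Since they were not all above 0.1 and the labels do not name a shared culture, the main fit did not treat the numbers as pairs. Its comparisons of days therefore leave out any pairing, and a block for the number was run as an alternative. Promoters are from RefSeq and coding sequences from GENCODE M21. Alternatives were other pseudocounts, filters, scalings, blocks, weights, samples and a macrophage covariate. Some items, among them 1 sequence, are not reported here.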

Additional observations from a re-analysis of the deposited data

How the results depend on the processing

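Apart from libraries left out in turn, counts of members called and mean levels were recomputed, of which 332 stayed the same, 4 moved and 3 counts rose from 0. A count was taken as the same if equal, also at 0, or within 1.5 times, and a level if within its SD. An equal count can hold other genes. After rescaling to a common sum, 3 members were still called in WT to day 2, with Cxcl12 lost and Cxcl1 gained. Of the single-gene values, 335 had the same status, called or not called, 13 lost their call and 7 changed sign. The 335 include differences between Per1-/- and WT that were not called in the main fit either. With the macrophage marker covariate, 6 members were called in WT from day 0 to day 2, 7 in Per1-/- from day 0 to day 2, and 0 in the libraries labelled Per2-/- from day 2 to day 4. From day 2 to day 4 in WT, 1 member was called under the replicate block and 1 under the genotype-by-replicate block (Ccl9 in both), and 1 with only the libraries compared (Ccl7). With only the libraries compared, 3 were called in the libraries labelled Per2-/- from day 0 to day 4.

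The differences between Per1-/- and WT that changed sign with the covariate were -0.46 (Ccl3), -0.69 (Ccl6) and -0.036 (Ccl9) on day 2, and -0.26 (Ccl3), -0.30 (Ccl4), -0.34 (Ccl6) and -0.46 (Ccl9) on day 4. With libraries left out in turn, Ccl6 on day 2 was between -0.51 and 0.76, negative without replicate 3 of Per1-/-, and Ccl9 on day 4 was between -0.10 and 0.60, negative without replicate 1 of Per1-/- and, at -0.038, without replicate 3 of WT. None of these differences was called in either form, and the cause was not tested.

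With each library left out in turn, the number of members called was 3 to 4 in Per1-/- and 3 to 4 in the libraries labelled Per2-/- from day 0 to day 2, 3 to 5 and 3 to 4 from day 0 to day 4, and 0 to 1 from day 2 to day 4 in the libraries labelled Per2-/-. In WT it was 3 to 4 from day 0 to day 2 and 4 in every case from day 0 to day 4. It was 0 in all genotype comparisons. Under the replicate block, 5 members were called in WT from day 0 to day 4 (also Ccl6) and 6 in Per1-/- (also Ccl9 and Cxcl1). Each library's best partner in another day of its genotype had its own number in 48 of 54 cases, a hint from the data and not from the design. Low fragment numbers limit Ccl4, Ccl5, Ccl6 and Cxcl10.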
